A study of Arabidopsis thaliana with 8 samples.

Results

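The leader, or 5′ untranslated region, is the stretch of an mRNA between its cap and the start codon of its coding sequence (CDS). Described here are the long leaders of the *Arabidopsis thaliana* nuclear genome, defined as leaders of at least 300 nt at loci of chromosomes 1 to 5 that also have an annotated CDS. The rule used the annotated lengths and no read counts. It kept 1801 of 27415 loci, or 8.34% of the 21591 nuclear loci with a leader. Of these, 964 leaders measured 300 to 399 nt, 644 measured 400 to 599 nt and 193 were of 600 nt or more. Their median length was 391 nt, against 98 nt over all nuclear leaders, and the longest had 2331 nt.

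All libraries came from wild-type Columbia-0 seedlings kept on Murashige-Skoog medium in darkness for 4 days, and thus pale and etiolated. The dark groups were collected without illumination (0 h) and the light groups after 4 h of white light. Steady-state mRNA was fragmented before sequencing, and ribosome-protected mRNA is what remained after a polysome extract was digested with RNase I. Each of the 4 groups holds 2 libraries, called repeat 1 and repeat 2. Nothing in the labels says that the repeats came from separate cultures, so the p-values rest on a spread between libraries that may be technical.

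In most mRNAs the small ribosomal subunit loads at the cap and scans the leader until it meets a start codon. An AUG within the leader can be used on the way and open a short upstream open reading frame (uORF), whose translation places ribosomes on the leader and usually leaves fewer of them to reach the CDS. Plants use uORFs to tune genes of transcription, polyamine and ascorbate synthesis, boron transport and auxin response. A leader read in a ribosome-protected library may also come from scanning subunits or from RNA held by other proteins, and the counts do not tell these apart.

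Upstream AUGs were the most frequent sequence feature of the long leaders. Leader sequences could be read for 1498 of the 1801 (83.2%) from the RefSeq annotation of TAIR10.1, with 676 taken from a transcript with a leader of the same length and 822 from the CDS-proximal end of a longer RefSeq leader. At least 1 upstream AUG was present in 1366 (91.2%), against 28.2% of 17412 shorter leaders. The median long leader held 3 and the highest number was 52. Per 100 nt, long leaders held 0.936 upstream AUGs and shorter leaders 0.462, at nearly the same median GC content (37.2% and 37.5%). A uORF that closes with a stop codon inside the leader was found in 89.9% of long leaders, and an intron lay in the leader of 34.2%, against 10.3% of shorter ones.

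The shortest possible uORF is a start codon directly followed by a stop. The motif ATGTAA, searched on the transcribed strand only, occurred in 110 long leaders (7.34%) and in 199 shorter leaders (1.14%). It is printed for the borate exporter BOR1 and the boric acid channel NIP5;1, for which start-stop uORFs have been studied. In the lines below capitals mark the ATGTAA, and the window of 27 bases was read from TAIR10.1.
BOR1 (chr2:19361023-19361049, minus strand, 250 nt before the CDS): ctttctttcttcATGTAAattgtttgt
NIP5;1 (chr4:6434796-6434822, minus strand, 312 nt before the CDS): ATGTAAatttaagtcctagctccattt

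Further windows show the first upstream AUG, in capitals, of the leaders that the later values turn on. AT3G24070 and AT4G36840 had leaders with many ribosome-protected reads relative to their CDS, whereas those of GPX5 and NSP1 had few relative to their CDS, although they hold upstream AUGs too. AT3G24070 has 10 upstream AUGs, AT4G36840 has 12, GPX5 has 10 and NSP1 has 5.
AT3G24070 (chr3:8693160-8693186, plus strand, 371 nt before the CDS): tcaccggcgacgATGgctttgaacaat
AT4G36840 (chr4:17351592-17351618, plus strand, 562 nt before the CDS): aatcaagaatttATGgcaagaaaggtc
GPX5 (chr3:23309742-23309768, plus strand, 407 nt before the CDS): gtgtgtgtacatATGaccaaaaacgtc
NSP1 (chr3:5566132-5566158, plus strand, 261 nt before the CDS): agagaaaaaacaATGagtttgcatatc

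Depth limited the ribosome-protected side. The mRNA libraries held 30997341 to 37245819 CDS reads and 340159 to 416251 reads in long leaders. Of the ribosome-protected libraries, repeat 1 held 4843438 (dark) and 4617343 (light) CDS reads, and repeat 2 held 14974871 and 40972194. Their long leaders received 38390 reads (dark) and 22822 (light) in the first repeat, and 70647 and 135853 in the second. The 2 libraries of each group differed by more than counting noise, with a chi-square per degree of freedom of 70.8 to 302. Etiolated state and light response were visible in CDS reads scaled to library size (CPM). PORA, a protochlorophyllide oxidoreductase of etiolated seedlings, had 86.5 and 710 CPM in dark mRNA and 4.39 and 9.45 in light. The light-harvesting gene LHCB2.2 had 7.05 and 6.87 in the dark and 381 and 659 in light. In these extracts of whole seedlings, fewer cells of a type and less RNA per cell cannot be told apart.

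One locus dominated the repeat 1 footprints on long leaders. AT3G55860, annotated as an uncharacterized protein with a leader of 656 nt, had no CDS read in any library. Its leader reads numbered 301 and 15 in dark mRNA, 254 and 28 in light mRNA, 19026 and 7634 in dark ribosome-protected mRNA and 9555 and 6976 in light ribosome-protected mRNA. It thus held 49.6% and 10.8% of all long-leader reads in the dark ribosome-protected libraries and 41.9% in repeat 1 in light. Summed shares are therefore given with and without it. Leaders took 11.6% to 12.5% of the leader and CDS reads of these loci in mRNA. In the ribosome-protected libraries they took 12% and 8.48% in the dark and 8.12% and 6.31% in light, or 6.42%, 7.64%, 4.89% and 6% without AT3G55860. AT3G55860 entered no test, because a leader was tested only where leader and CDS each had at least 50 reads over the 8 libraries. The tested long leaders numbered 1454, and of the 347 others 102 had neither a leader nor a CDS read.

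Relative to the CDS of the same locus, long leaders carried about as many reads per nucleotide in mRNA as shorter ones. In ribosome-protected mRNA they carried more relative to that CDS. Leader read density is given as leader reads per nt in percent of CDS reads per nt of the same locus, so that library size drops out. The median long leader stood at 55.5% and 58.4% in dark mRNA and at 52.8% and 59.4% in light mRNA. In ribosome-protected mRNA it stood at 22.8% and 32.6% in the dark and at 13.1% and 29.5% in light. Shorter leaders had medians of 7.55% and 12.4% in the dark and 0.587% and 11.5% in light. The mRNA libraries thus lay above the ribosome-protected ones in every case, and repeat 1 was lower than repeat 2 in both ribosome-protected groups. The number of tested long leaders with no read was 152 and 35 in the dark and 289 and 20 in light, so the repeat 1 medians rest on thin counts.

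**Figure D1:**
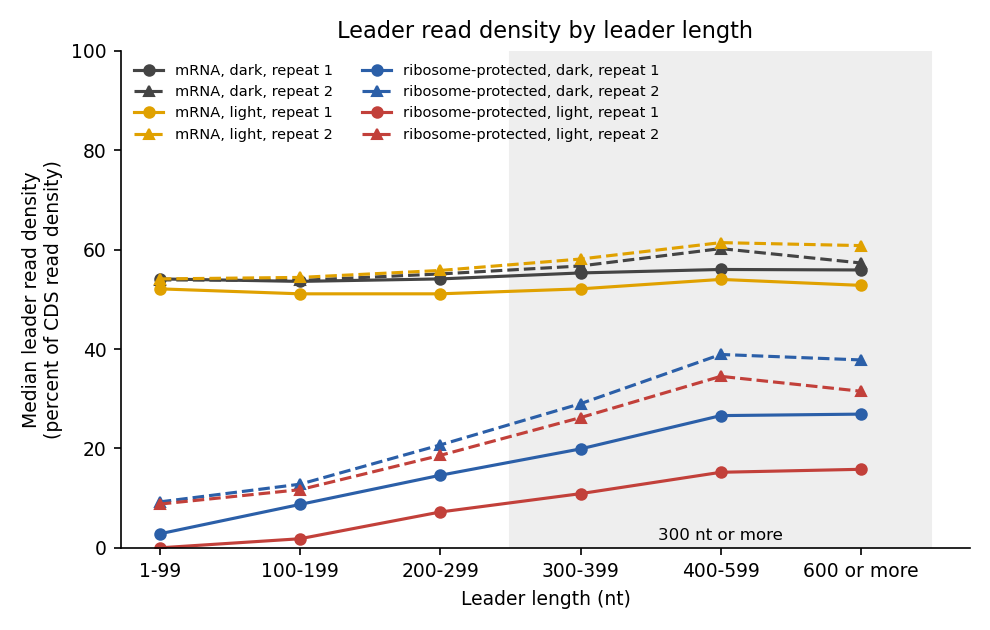
Median leader read density (percent of CDS read density, y axis) by leader length class (nt, x axis) in each of the 8 libraries, with a line per library and long leaders shaded. The mRNA lines are nearly flat, and the ribosome-protected lines rise with length, in repeat 2 in the dark from 9.24% at 1 to 99 nt to 38.9% at 400 to 599 nt and 37.8% at 600 nt or more.

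Whether the leader-to-CDS read ratio differed between ribosome-protected mRNA and mRNA was tested per locus. A change in CDS reads moves this ratio as a change in leader reads does, and leader reads alone were not tested. The value is the log2 leader-to-CDS read ratio in ribosome-protected mRNA against that in mRNA, fitted with edgeR's quasi-likelihood model over all 12228 tested leaders, with adjusted p under 0.05 as the threshold. In the dark the ratio was lower in ribosome-protected mRNA for 656 of 1454 long leaders (45.1%) and higher for 83 (5.71%). Over all tested leaders 64.8% were lower and 1.76% higher, and among shorter nuclear leaders 67.6% and 1.17%. The median log2 difference was -0.81 for long and -2.13 for shorter leaders. With the 25 long leaders whose group had no leader or CDS read set to a bound of 3 reads over the group, the median was -0.80. The repeats gave medians of -1.01 and -0.66, and 1172 of the 1454 long leaders had the same sign in both.

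After light the same comparison gave 825 lower (56.7%) and 98 higher (6.74%) of the long leaders. The corresponding background was 77.3% and 2.24% over all tested leaders. Medians were -1 for long and -2.30 for shorter leaders, and -1.46 and -0.93 for the long leaders by repeat. Of the 656 leaders lower in the dark, 622 (94.8%) were also lower in light, which is 75.4% of the 825. Of the 83 higher ones 56 (67.5%) were also higher in light, or 57.1% of the 98. In either direction edgeR called 739 long leaders in the dark and 923 in light, where 66.6% and 79.5% of all tested leaders were called. DESeq2 called 411 long leaders in the dark and 5841 of the 12228 leaders tested, and without ribosome-protected dark repeat 2 edgeR called 451 and 4708. Without ribosome-protected light repeat 2 the median in light was -1.89 and the median over all loci -4.35.

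**Figure D2:**
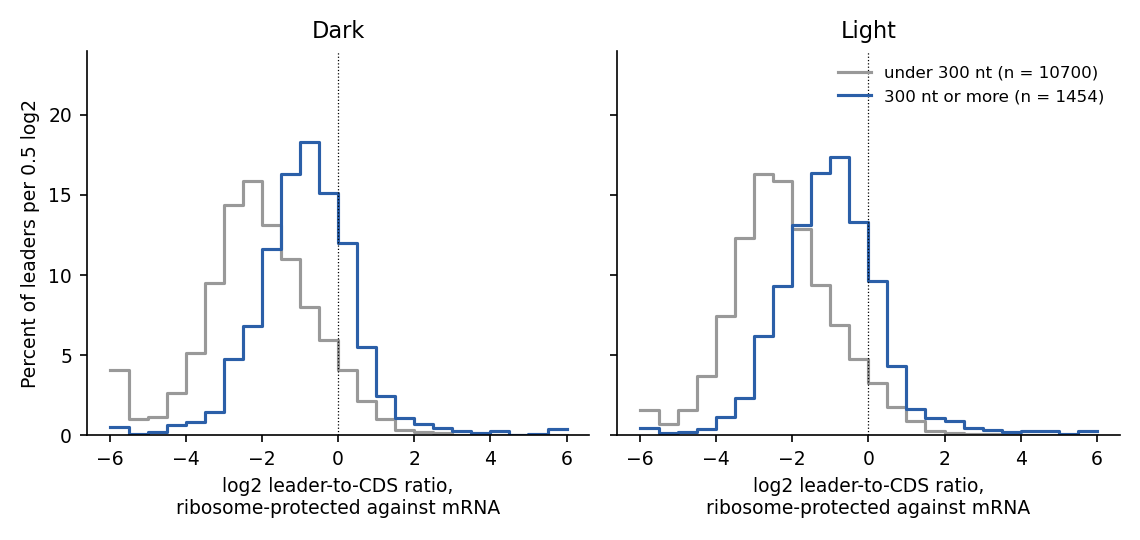
Share of tested leaders (percent per 0.5 log2, y axis) by their log2 leader-to-CDS ratio in ribosome-protected mRNA against mRNA (x axis), in the dark and in light, for 10700 shorter and 1454 long leaders; the end bins also hold values beyond the axis. The long leaders sit nearer to 0, with a median of -0.81 against -2.13 in the dark, and both distributions are broad.

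The ratio followed length in steps. From 1 to 99 nt to 600 nt or more, the median log2 difference in the dark was -2.55, -2.10, -1.41, -1, -0.61 and -0.60 over the 6 length classes. The share of leaders called lower was 71.5%, 68.7%, 57.9%, 48.7%, 41.7% and 37.3%. The share called higher ran from 0.463% to 9.15%. Reads were also divided by each library's CDS total. Leader reads in dark ribosome-protected mRNA against mRNA then had a median log2 of -1.74 and -1.69 for long leaders. For shorter ones it was -2.01 and -2.08. CDS medians were -0.68 and -0.92 against -0.10 and -0.23. From the shortest to the longest class, leader medians went from -2.08 and -2.25 to -1.89 and -1.80. CDS medians went from 0.12 and -0.01 to -0.97 and -1.23, a larger difference. Nothing changed abruptly at 300 nt. Just inside the threshold, the log2 difference was -1.13 at AT1G26850 (302 nt), -2.01 at ROP2 (301 nt), a small GTPase of polarity, and -0.29 at FUG1 (300 nt), the chloroplast translation initiation factor. Just outside it, ASD1 and GH9B7 (both 298 nt), which act on cell wall polysaccharides, had -1.76 and -1.44, and AT3G17100 (299 nt) had -2.31.

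Among long leaders the ratio also followed the number of upstream AUGs. With none, the median log2 difference in the dark was -1.91, and 105 of 121 leaders (86.8%) were lower and 0 higher. With 1 it was -1.34, with 2 or 3 it was -0.83, with 4 to 7 it was -0.44, and with 8 or more it was -0.05, where 30 of 118 (25.4%) were lower and 19 (16.1%) higher. Light gave the same order, from -2.32 with none to -0.33 with 8 or more. Read density in dark ribosome-protected repeat 2 went from a median of 14.6% with no upstream AUG to 53.8% with 8 or more, and in repeat 1 from 13.6% to 30.5%. In dark mRNA repeat 2 these classes lay between 56.4% and 59.4%. Across the 1193 tested long leaders with a sequence, the log2 difference and the number of upstream AUGs had a Pearson r of 0.327 and a Spearman rho of 0.396, a description over loci that share the same libraries.

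At an equal number of upstream AUGs, the medians of the length classes from 100 to 599 nt lay close together with 1, 2 or 3 upstream AUGs and less so with none or with more. Leaders with none had medians of -2.68 at 1 to 99 nt, -2.46 at 100 to 199 nt, -2.24 at 200 to 299 nt, -1.89 at 300 to 399 nt and -1.94 at 400 to 599 nt. With 1 upstream AUG the classes from 100 to 599 nt gave -1.34, -1.33, -1.34 and -1.30. With 2 or 3 they gave -0.77, -0.79, -0.81 and -0.88, and leaders of 1 to 99 nt -0.53. With 4 to 7 they gave -0.36, -0.20, -0.44 and -0.39, and -0.69 at 600 nt or more. The class with 8 or more was uneven, at -0.74 for the 16 tested leaders of 300 to 399 nt, 0.01 for 400 to 599 nt and -0.38 for 600 nt or more. Leaders with ATGTAA, 73 of them tested, had a median of -0.22 with 20 lower and 11 higher. The 999 with an upstream AUG but no ATGTAA had a median of -0.77 and fewer upstream AUGs, 3 against 5 at the median.

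Both sides of the ratio moved with upstream AUGs. Each library's reads were divided by its CDS total, so that leader and CDS could be followed apart. With no upstream AUG, leader reads in ribosome-protected mRNA against mRNA had a median log2 of -2.30 and -2.54 in the dark, and CDS reads -0.49 and -0.65. With 1 upstream AUG the leader medians were -1.88 and -1.94 and the CDS medians -0.40 and -0.63. With 2 or 3 upstream AUGs the leader medians were -1.65 and -1.57 and the CDS medians -0.61 and -0.82. With 4 to 7 upstream AUGs the leader medians were -1.60 and -1.43 and the CDS medians -0.77 and -1.08. With 8 or more they were -1.5 and -1.74 for the leader and -1.07 and -1.51 for the CDS. From none to 2 or 3 upstream AUGs the leader medians rose in both repeats. The CDS medians did not fall from none to 1 and were lower with 2 or 3, in both repeats. From 2 or 3 to 8 or more the leader medians changed little and ended lower in repeat 2. The CDS medians fell further in both repeats. Leaders with an intron (median -0.68 of the ratio, 411 leaders) and without (-0.98, 782) were closer to each other. Loci that overlap another annotated locus (-0.81, 484) and those that do not (-0.80, 968) had nearly equal medians.

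**Figure D3:**
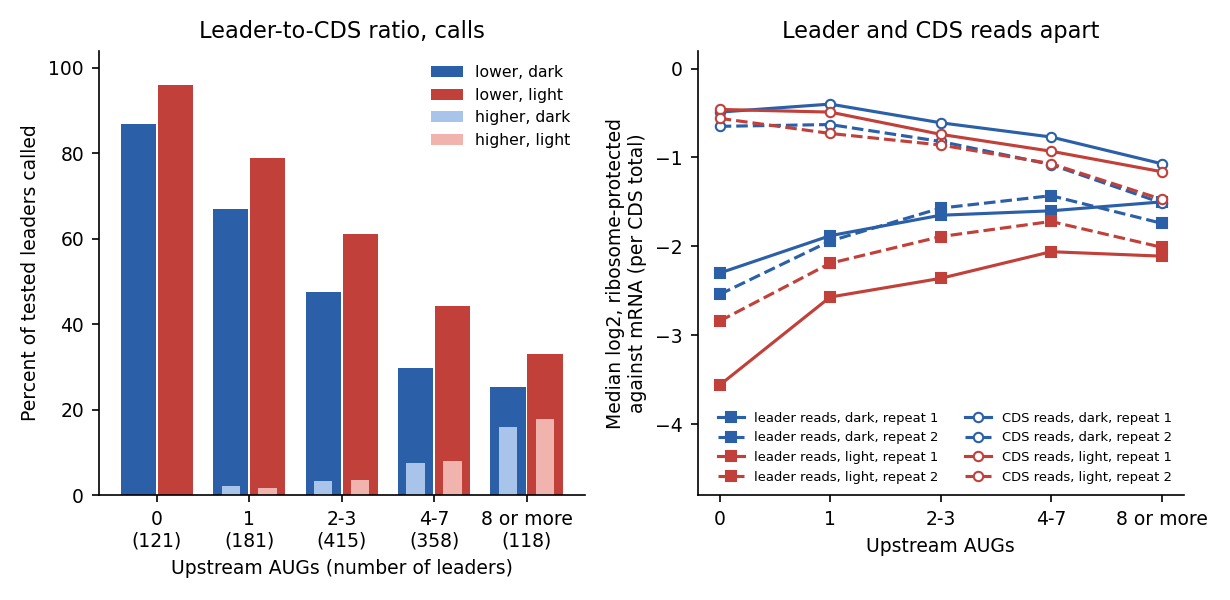
Left, percent of tested long leaders whose leader-to-CDS ratio was called lower or higher in ribosome-protected mRNA (y axis) by number of upstream AUGs (x axis, number of leaders in brackets), in dark and light. Right, median log2 of ribosome-protected against mRNA reads per CDS total for leader and CDS reads apart, a line per repeat and condition. Leader medians in the dark go from -2.30 and -2.54 with no upstream AUG to -1.60 and -1.43 with 4 to 7. With 8 or more they are -1.5 and -1.74. CDS medians are -0.49 and -0.65 with none and -1.07 and -1.51 with 8 or more.

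Individual leaders with a higher leader-to-CDS ratio in ribosome-protected mRNA than in mRNA included genes whose CDS was almost empty of ribosome-protected reads. AT3G24070, a zinc knuckle protein with a leader of 458 nt, had 628 leader and 1320 CDS reads in dark mRNA repeat 1 and 394 and 870 in repeat 2. In dark ribosome-protected mRNA it had 81 leader and 15 CDS reads in repeat 1 and 123 and 10 in repeat 2. The leader thus held most reads in both ribosome-protected libraries and fewer than the CDS in both mRNA libraries, a log2 difference of 4.12 (SE 0.33, edgeR adjusted p = 5.84e-33). In light the ribosome-protected reads were 53 against 4 and 234 against 11. AT4G36840, a kelch repeat protein with a leader of 813 nt, had 126 leader and 138 CDS reads and 223 and 207 in dark mRNA, but 6 and 2 and 20 and 1 in dark ribosome-protected mRNA. Its difference was 3.06 (SE 0.77, edgeR adjusted p = 0.000213), and 1.57 and not called without ribosome-protected dark repeat 2. AT3G26920 (FBD and leucine-rich repeat protein, 568 nt) had 3 leader and 5 CDS reads in repeat 1 and 29 and 3 in repeat 2, so its 2.70 (SE 0.59, edgeR adjusted p = 1.59e-05) rested on repeat 2 and was 0.01 without it. AT2G27402 (506 nt) had 11 and 7 leader reads and no CDS read in dark ribosome-protected mRNA. Against 3 CDS reads over the group its ratio was at least 1.73-fold higher than in mRNA.

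By the same naming rule, the highest differences came from leaders at loci that overlap other annotated loci. AT4G03410, an Mpv17 and PMP22 family protein, overlaps AT4G03400, AT4G03405 and AT4G03415. Its leader of 739 nt had 14 and 12 reads in dark mRNA but 167 and 959 in dark ribosome-protected mRNA, beside 12 and 25 CDS reads (8.93, SE 0.36, edgeR adjusted p = 1.39e-128). AT4G23420, a Rossmann-fold protein, overlaps AT4G07120, and its leader of 545 nt had 917 and 187 reads in dark mRNA and 2859 and 4585 in dark ribosome-protected mRNA, beside 3 and 17 CDS reads (7.20, SE 0.50, edgeR adjusted p = 8.8e-44). Which of the overlapping loci gave these reads cannot be told from the counts. PAO4, RVE1, ELF3, AFB3, KIN10, AT4G03260 and APRR8, all named below, also lie at loci that overlap others. AT1G07590, a tetratricopeptide repeat-like protein overlapping AT1G07600, had the most mRNA leader reads of all long leaders (11084 and 14363 in the dark) beside 101 and 85 CDS reads, and its difference of 0.41 was not called (SE 0.72, edgeR adjusted p = 0.615).

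At the other end stood leaders whose ribosome-protected reads were few relative to those of their CDS. NSP1, a nitrile-specifier protein of glucosinolate breakdown, had leader densities of 36.0% and 26.8% in dark mRNA and 1.85% and 2.38% in dark ribosome-protected mRNA. GPX5, a glutathione peroxidase-like enzyme, had 30.7% and 23.5% against 3.10% and 1.66%. The groups did not overlap for either gene, though equal signs in the repeats were already required by the naming rule. The log2 differences were -3.86 (SE 0.75, edgeR adjusted p = 1.52e-06) and -3.70 (SE 0.37, edgeR adjusted p = 1.75e-21). AT1G61900 (331 nt), with no upstream AUG, went from 53.0% and 53.4% to 4.22% and 5.23%. AT1G63840, a RING/U-box protein with a leader of 316 nt and no upstream AUG, went from 17.2% and 19.2% to 0.794% and 1.95%, and AT5G10060 (330 nt, none, overlapping AT5G10050) from 74.0% and 69.9% to 7.63% and 5.09%. AT1G23880, an NHL domain protein, had -5.12 (SE 0.52, edgeR adjusted p = 8.16e-21), the lowest value among the called leaders whose repeats had equal signs and whose leader CPM was at or above the median, with 745 and 244 leader reads in dark mRNA and 4 and 4 in ribosome-protected mRNA. It overlaps AT1G23890.

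Genes with a conserved-peptide uORF, whose encoded peptide is kept across plants, mostly could not be tested. Of 24 listed genes 20 had a long leader, and 15 of these were listed with 0 CDS reads in all 8 libraries, 11 of them also with 0 leader reads. A locus listed at 0 is not shown to lack mRNA. Of the 5 that were tested, 2 had a higher ratio in the dark, 3 in light and none was lower. Among all tested long leaders 5.71% were higher and 45.1% lower in the dark, and 6.74% and 56.7% in light. Over all tested leaders these shares were 1.76% and 64.8% in the dark and 2.24% and 77.3% in light. NAC082, a transcription factor of the response to ribosome stress, had leader densities of 82.3% and 83.4% in dark mRNA and 158% and 231% in dark ribosome-protected mRNA (1.29, SE 0.27, edgeR adjusted p = 7.67e-06). PAO4, a polyamine oxidase, went from 60.7% and 55.0% to 85.6% and 119% (0.88, SE 0.35, edgeR adjusted p = 0.0213). Both genes had higher densities in both ribosome-protected libraries than in either mRNA library. VTC2 and VTC5, the GDP-galactose phosphorylases of ascorbate synthesis, had 0.24 (SE 0.45, edgeR adjusted p = 0.644) and 0.39 (SE 0.44, edgeR adjusted p = 0.422). VTC5 was called in light at 0.78 (SE 0.25, edgeR adjusted p = 0.00257). SIP3, a kinase that interacts with calcineurin B-like calcium sensors, had 0.51 (SE 0.56, edgeR adjusted p = 0.421). Without ribosome-protected dark repeat 2, NAC082 stood at 0.93 and PAO4 at 0.57, neither called, and PAO4 was also uncalled without mRNA dark repeat 1 or 2 or mRNA light repeat 1. Without ribosome-protected light repeat 2 VTC5 stood at 1.04 and was not called.

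Of 5 other genes with a studied uORF, 4 had a long leader and were tested. BOR1 had densities of 54.0% and 61.7% in dark mRNA and 60.3% and 133% in dark ribosome-protected mRNA (0.82, SE 0.28, edgeR adjusted p = 0.0064), and the value without ribosome-protected dark repeat 2 was 0.06. The call was also lost without any 1 mRNA library. NIP5;1 did not pass the test in the dark (0.08, SE 0.66, edgeR adjusted p = 0.924) and was lower in light (-2.10, SE 0.63, edgeR adjusted p = 0.0014), on 1 and 4 ribosome-protected leader reads. Without ribosome-protected light repeat 2 it stood at -1.48 and was not called. The auxin response factors ETT and MP had 0.13 (SE 0.59) and -0.82 (SE 0.50) in the dark and were not called there.

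Light and clock regulators with long leaders had a lower ratio in the dark or were not called, and none had a higher one. Among all tested long leaders 45.1% were lower in the dark and 5.71% higher, and over all tested leaders 64.8% and 1.76%. Lists this small do not set these genes apart from those shares. Of 13 photoreceptor genes only the UV-B receptor UVR8 had a long leader, with densities of 8.70% and 8.29% in dark mRNA and 2.78% and 2.68% in ribosome-protected mRNA (-1.64, SE 0.54, edgeR adjusted p = 0.00496). It stood at -1.60 and was not called without ribosome-protected dark repeat 2. Of 5 light signalling regulators tested, PIL6, the phytochrome-interacting factor also called PIF5, was lower (-2.58, SE 0.48, edgeR adjusted p = 4.79e-07), and SPA1, SPA2, SPA3 and FAR1 did not pass. Of 8 clock genes 3 were lower, RVE1 at -2, ELF3 at -1.38 and GI at -0.93, and LHY, TOC1, PRR3 and the LNK genes AT3G54500 and AT5G64170 did not pass. GI was called in 5 of 13 alternatives, and not without ribosome-protected dark repeat 1 (-0.50) or without any 1 mRNA library. RVE1 and ELF3 were lower in every library pair, with ELF3 going from 74.5% and 78.6% to 30.9% and 28.4%.

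Of 10 auxin response factors and receptors 4 were lower in the dark (AFB3, ARF10, AFB2 and NPH4) and 0 higher. The shares to set beside this and the next lists are 45.1% lower and 5.71% higher among all tested long leaders. Over all tested leaders they are 64.8% and 1.76%. The auxin receptor AFB3 went from 70.1% and 68.0% to 33.1% and 27.2% (-1.26, SE 0.30, edgeR adjusted p = 9.08e-05), and its relative AFB2 from 70.7% and 70.9% to 33.9% and 30.4% (-1.16, SE 0.36, edgeR adjusted p = 0.00302). NPH4 at -0.95 was not called without ribosome-protected dark repeat 1, where it stood at -0.52, nor without either dark mRNA library. Of 4 heat shock factors 3 were lower, among them RHA1 (HSFA4C) at -2.24 (SE 0.49, edgeR adjusted p = 1.72e-05) and HSF A4A at -1.36, and the third, AT-HSFB2B at -1.08, stood at -0.30 without ribosome-protected dark repeat 2 and was also uncalled without mRNA dark repeat 2. None of 3 HD-ZIP III and 3 ethylene genes was called in the dark. In light ATHB-15 and the ethylene receptor ETR2 were higher (0.65 and 1.42), and both values changed sign without ribosome-protected light repeat 2, to -0.39 and -1.42. Of 4 TOR and SnRK1 genes, PK1 (S6K1), the ribosomal S6 kinase downstream of TOR, went from 71.0% and 55.7% to 190% and 150% (1.37, SE 0.30, edgeR adjusted p = 1.64e-05). It was called in all 13 alternatives. KIN10, the SnRK1 kinase, was lower at -1.35 (SE 0.50, edgeR adjusted p = 0.0134), and was not called without ribosome-protected dark repeat 2 or mRNA dark repeat 1, at -1.38 and -1.23. No DELLA or gibberellin receptor gene and no SR splicing factor gene had a long leader.

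At the median, the CDS behind long leaders had fewer ribosome-protected reads for its mRNA level than the CDS behind shorter ones. This ratio, the translational efficiency, was fitted on CDS counts with TMM scaling over 19823 loci. In the dark it was lower for 158 of 1575 long-leader loci (10%) and higher for 2, where 3.87% of all tested loci were lower, 0.787% higher and 4.66% either. The median log2 was -0.53 for long-leader loci and 0.07 for loci with shorter leaders, and 76.4% of long-leader loci lay below 0 against 46.3%. By repeat the medians were -0.64 and -0.85. With the repeat number as a block, 710 long-leader loci (45.1%) were lower and 88 higher, where 21.1% of all loci were lower and 19.2% higher. DESeq2 called 314 lower and 16 higher, against 8.4% and 5.2% of all loci. When any 1 of the 8 libraries was left out, no locus at all was called, while 360 to 537 long-leader loci had an unadjusted p under 0.05 and their median stayed between -0.63 and -0.46.

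The CDS values also followed leader length and upstream AUGs. Over the 6 length classes the median log2 of the CDS was 0.15, 0.06, -0.19, -0.43, -0.64 and -0.81. Long-leader loci with no upstream AUG had a median of -0.30 and those with 8 or more -0.93, with 6.98% and 20.9% called lower. With 1 upstream AUG the median was -0.28, with 5.26% called lower, so no fall was seen from none to 1. With 2 or 3 it was -0.43 and with 4 to 7 it was -0.63. Across 1306 long-leader loci the CDS value and the number of upstream AUGs had a Pearson r of -0.335 and a Spearman rho of -0.219, and across 1575 the CDS value and leader length -0.271 and -0.199, as descriptions over loci of shared libraries. Of the 83 loci whose leader ratio was higher in the dark, 38 had a lower CDS value, with a median of -2.12. Of the 656 with a lower leader ratio, 22 were lower and 1 higher, with a median of -0.16. Both quantities use the same CDS counts, which couples them in opposite directions, so these counts stand side by side only.

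**Figure D4:**
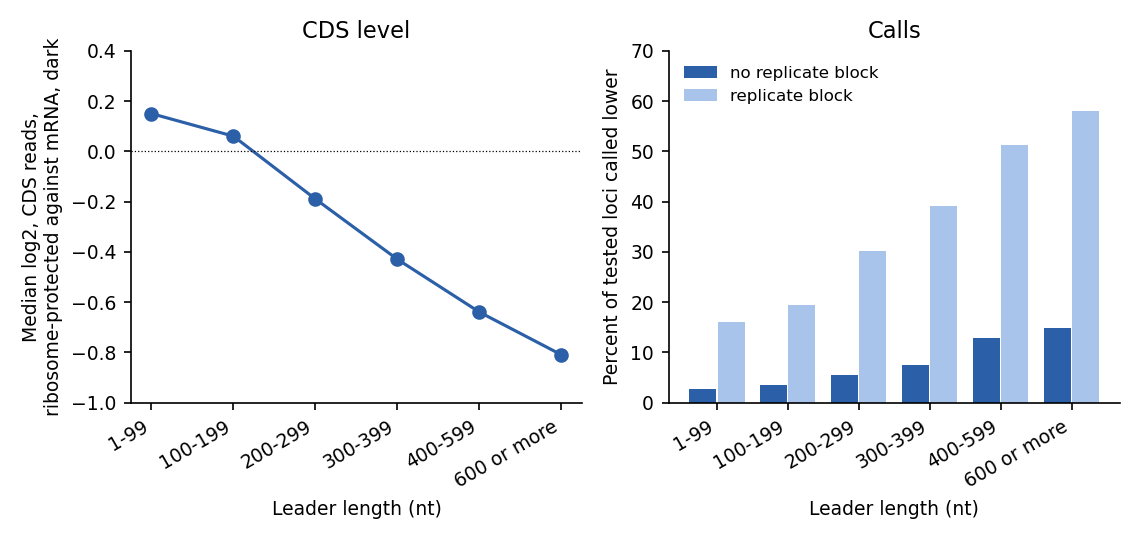
Left, median log2 of CDS reads in ribosome-protected mRNA against mRNA in the dark (y axis) by leader length class (nt, x axis); right, percent of tested loci called lower in edgeR's test without and with the repeat number as a block. The median goes from 0.15 at 1 to 99 nt to -0.81 at 600 nt or more, and the share of calls is larger with the block in each class.

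PLDGAMMA2, a phospholipase D with a leader of 1096 nt and 15 upstream AUGs, had the lowest value among the called CDS whose repeats had equal signs and whose CDS CPM was at or above the median. Its CDS stood at 46.2 and 86.4 CPM in dark mRNA and at 2.89 and 1.60 CPM in dark ribosome-protected mRNA (-4.64, SE 0.40, edgeR adjusted p = 0.0266), and its leader ratio was higher (2.04, SE 0.36). CPUORF7, a transcription factor gene whose name refers to a conserved peptide uORF, had 59.6 and 54.3 CPM against 7.43 and 3.74 (-3.12, SE 0.37, edgeR adjusted p = 0.0266). AT4G03260 had 114 and 118 CPM against 16.7 and 7.21 (-3.01, SE 0.44, edgeR adjusted p = 0.0315). Both ribosome-protected libraries were far below both mRNA libraries at all 3 loci, for which the naming rule already required equal signs in the repeats. APRR8, a pseudo-response regulator relative with the longest tested leader (2063 nt, 49 upstream AUGs), had a CDS value of -4.36 (SE 0.43, edgeR adjusted p = 0.0266) on 2 and 4 ribosome-protected reads. Among the listed genes NAC082 (-2.58), PK1 (-2.44), SPA3 (-1.71), PRR3 (-1.59) and AFB2 (-1.22) were lower. The 8 clock genes had a median of -1.26, against -0.53 for all long-leader loci, and only 1 of them, PRR3, was called. Over all long-leader loci 10% were called lower, and over all tested loci 3.87%. A list of this size does not set the clock genes apart from those shares. PDCB4, a callose-binding protein of plasmodesmata, was higher despite a leader of 724 nt with 6 upstream AUGs. It had 47.8 and 56.1 CPM in dark mRNA and 107 and 95.9 CPM in ribosome-protected mRNA (1.26, SE 0.22, edgeR adjusted p = 0.0382), and its leader density was low in ribosome-protected mRNA (12.5% and 13.7% in mRNA, 1.07% and 1.42% in ribosome-protected mRNA).

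Light for 4 h left the leader-to-CDS ratio of most long leaders without a call. In mRNA 4 were higher and 3 lower in light than in dark, where 0.0736% of all tested leaders were called in each direction, and the median log2 change was -0.01. In ribosome-protected mRNA 1 was higher and 7 lower, where 0.0245% and 0.425% of all leaders were, and the median change was -0.18, as for the shorter leaders. The change in ribosome-protected mRNA differed from that in mRNA at 1 locus, AT4G03410, where 0.172% of all leaders differed, 0.00818% being higher and 0.164% lower. That value was -3.09, and -0.25 without ribosome-protected light repeat 2; the call was lost without any of ribosome-protected dark repeat 2, mRNA dark repeats 1 and 2 and mRNA light repeat 1 as well. Unadjusted p under 0.05 was reached by 85 long leaders (5.85%) in ribosome-protected mRNA, and by 4.87% of all tested leaders. DESeq2 called no long leader in these comparisons, and a fit of the ribosome-protected libraries alone called none in ribosome-protected mRNA. The median in ribosome-protected mRNA was -1.07 without ribosome-protected light repeat 2 and 0.21 without ribosome-protected dark repeat 2. For the CDS, edgeR called no long-leader locus for a light change of translational efficiency, with 18 (1.14%) at an unadjusted p under 0.05, where 1.32% of all loci were. DESeq2 called 2 long-leader loci and 15 of all 19823.

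All 12 leaders with a light call are named, those outside the naming rule after their values were seen. In mRNA, LIG6, a DNA ligase, went from 32.9% and 25.5% in the dark to 112% and 132% in light (2.07, SE 0.29, edgeR adjusted p = 2.53e-09). AT3G18530, which overlaps AT3G18535, went from 139% and 122% to 488% and 571% (2, SE 0.31, edgeR adjusted p = 3.19e-07), while its CDS reads numbered 871 and 1488 in the dark and 36 and 22 in light. Both kept the call when any library was left out. XTH5, a xyloglucan-remodelling enzyme of the cell wall, went from 46.4% and 9.23% to 138% and 100% (2.89, SE 0.35), and stood at 1.32 and uncalled without mRNA dark repeat 2. AT2G31730 went from 26.7% and 31.5% to 51.4% and 58.3% (0.91, SE 0.22, edgeR adjusted p = 0.0362). Lower in light were AT1G23880 (-2.21, SE 0.22), AT2G29290 (-3.11, SE 0.32) and the bZIP factor EEL (-1.68, SE 0.38). Each of these lies at a locus that overlaps others, AT1G23890, AT2G29280, and AT2G09215 with AT2G41060, in that order. Without mRNA dark repeat 2, AT2G29290 stood at -2.06 and was not called, and AT1G23880 was not called without mRNA dark repeat 1 or light repeat 2, at -1.06 each. AT2G31730 and EEL each lost the call without any 1 of the mRNA libraries, at 0.81 to 1.05 and -1.95 to -1.45.

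In ribosome-protected mRNA the calls rested on few reads. AT3G03890 has a leader of 488 nt with 1 ATGTAA and overlaps AT3G03880. It went from 34.5% and 48.0% in the dark to 14.4% and 14.9% in light (-1.55, SE 0.35, edgeR adjusted p = 0.00387). AT1G76460, which overlaps AT1G76450 and AT1G76465, went from 39.3% and 24.2% to 8.59% and 13.2% (-1.23, SE 0.32, edgeR adjusted p = 0.028). AT5G18650, the E3 ligase MIEL1, went from 21.0% and 19.3% to 2.10% and 8.63% (-1.72, SE 0.46, edgeR adjusted p = 0.0436). In all 3 the light values lay below the dark ones in both repeats, which the naming rule required. Under the alternatives with a value AT3G03890 kept its call in 10 of 14, AT1G76460 in 3 and AT5G18650 in 1. Without ribosome-protected dark repeat 2 AT3G03890 stood at -1.22, uncalled, and it was uncalled without ribosome-protected light repeat 2 as well, and AT1G76460 and AT5G18650 kept their direction throughout, from -1.76 to -0.97 and from -3.25 to -1.21. AT1G23880 had 4 and 4 leader reads in the dark and 0 and 1 in light beside 30 and 335 CDS reads, a pooled light-to-dark ratio of 0.0171 (95% counting interval 0.000434 to 0.0954). Its call was lost without ribosome-protected dark repeat 1 or either light repeat. AT2G29290 (-3.42, SE 0.71) turned to 1.82 without ribosome-protected dark repeat 2. XTH5 (6.05, SE 1.47) rested on 0 and 4 leader reads in light and stood at 0.97 without ribosome-protected light repeat 2; it was also uncalled without ribosome-protected dark repeat 2 or light repeat 1. AT4G23420 (-2.29, SE 0.58) and AT4G03410 (-1.95, SE 0.34) turned to 0.81 and 0.89 without that library, and for AT4G03410 the repeats disagreed in sign (1.99 and -3.92).

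**Figure D5:**
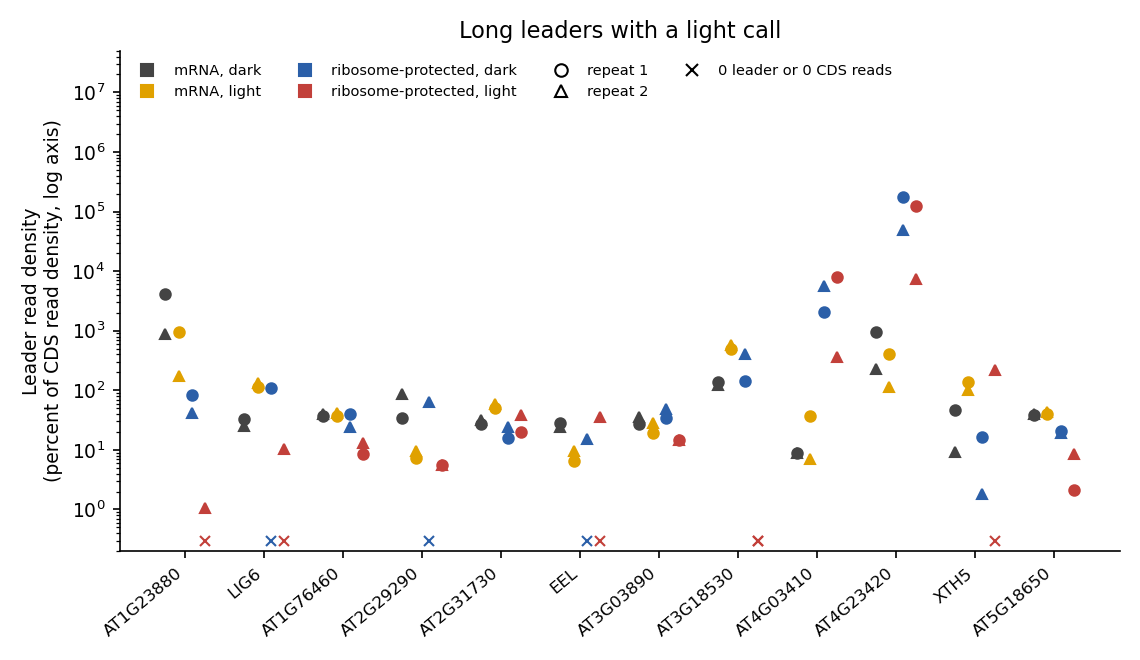
Leader read density (percent of CDS read density, log y axis) of the 12 long leaders with a light call (x axis) in each library, colours for kind and condition and symbols for repeats; crosses at the bottom mark libraries with 0 leader or 0 CDS reads. LIG6 and AT3G18530 are higher in light mRNA than in dark mRNA in both repeats, and AT3G03890, AT1G76460 and AT5G18650 are lower in light than in dark ribosome-protected mRNA.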

How the data were processed

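Per the file headers, the authors deposited, for each library and locus, whole-number read counts in the 5′ untranslated region, the CDS and the 3′ untranslated region of 1 gene model, not normalized; repeat 1 and repeat 2 stand in separate tables. The submitters' processing notes name TAIR 10 as the build. Not given in the sources used here are the aligner, whether strand was used, and how reads were counted that map to several places or span the leader and CDS boundary. The 24 RPKM columns were not used.

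Leader and CDS counts of all 8 libraries were fitted by edgeR 4.0.16 (quasi-likelihood, R 4.3.3) with 1 term per library and 1 leader-against-CDS term per group, leaving 4 residual degrees of freedom, over 12228 loci with at least 50 leader and 50 CDS reads. Library size cancels in this ratio. CDS counts were fitted with 1 mean per group and TMM factors of 0.824 to 1.26 over 19823 loci after filterByExpr. P-values are two-sided and were adjusted after Benjamini and Hochberg over all tested loci. With 2 libraries a group, the smallest p of an exact permutation test is 0.333. Alternatives were DESeq2 1.42.0, other filters, an offset fit, RLE factors, the replicate block and leaving out each library. Intervals cover counting error only.

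The repeat numbers were checked as a pairing. Libraries with the same number deviated together from their groups' means in CDS reads (r of 0.623 to 0.821 for the 6 pairs of groups, across 19823 loci), so the CDS comparison is also given with the repeat number as a block. The labels do not say what a number marks. Sequences, introns and overlaps came from RefSeq's TAIR10.1, in which 1788 of the 1801 loci were found; the deposited tables give no coordinates.

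Named were, per leader comparison, the called long leaders with the 6 highest and 6 lowest differences, equal sign in the repeats and leader CPM at or above the median (3 and 3 for the CDS), up to 2 genes per list, all tested conserved-peptide uORF genes, the 3 leaders densest in ribosome-protected reads, the longest tested leader and 3 loci on either side of the length threshold. The long leaders and the lists were chosen with earlier results of these data known.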

Additional observations from a re-analysis of the deposited data

Results flagged for a closer look

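AT4G03410 was the only long leader whose light change in the leader-to-CDS ratio differed between ribosome-protected mRNA and mRNA (log2 -3.09, SE 0.55, edgeR adjusted p = 2.58e-05). The repeats gave -0.04 and -3.60, the difference was called in 5 of 13 alternatives, and it was -0.25 without ribosome-protected light repeat 2. The locus overlaps AT4G03400, AT4G03405 and AT4G03415.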

How the results depend on the processing

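Counts of long leaders called, of 1454, were 739 for ribosome-protected against mRNA in the dark and 923 in light, and 7, 8 and 1 for the light change in mRNA, in ribosome-protected mRNA and their difference. DESeq2 called 411 in the dark and 0, 0 and 0 for the light changes, with 8, 37 and 14 at an unadjusted p under 0.05. With at least 200 leader and 200 CDS reads the light counts were 4, 2 and 0, and with CDS counts as an offset they were 4 in ribosome-protected mRNA and 0 for the difference. The mRNA libraries alone gave 4 and the ribosome-protected libraries alone 0. Among the 968 long leaders whose locus overlaps no other, 614 were called in light, and 3, 2 and 0 for the light changes. Leaving out 1 library gave 451 to 797 in the dark, 715 to 937 in light, and 4 to 8, 3 to 20 and 0 to 8 for the light changes. The CDS counts, 160 in the dark and 0 for the light change, became 330 and 2 with DESeq2 and 0 to 0 with any library left out.

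The replicate block gave 745 and 947 leader calls, 7, 6 and 1 light calls, 798 CDS calls in the dark and 0 for the light change. In the leader-to-CDS ratio, deviations of same-numbered libraries correlated at 0.0466 to 0.251 over all tested leaders and at 0.0379 to 0.333 over the long leaders. These were not above 0.1 for every pair of groups, so the leader comparisons were not treated as paired. Dark and light libraries of the same kind did lie above 0.1. Over all and over long leaders they gave 0.192 and 0.333 in mRNA and 0.251 and 0.148 in ribosome-protected mRNA. With the block, AT4G23420 (-2.33) and AT5G18650 (-1.79) lost their light call in ribosome-protected mRNA. Without ribosome-protected light repeat 2, AT4G23420 reversed to 0.81 (light change in ribosome-protected mRNA; -3.66 to 0.81 over the libraries left out). ATHB-15 and ETR2 reversed there too in the ratio of ribosome-protected to mRNA in light, with ranges of -0.39 to 0.89 and -1.42 to 1.72. The cause was not tested. Over 51 results of genes named by the rule, 536 alternative values kept direction and call, 119 lost the call, 8 gained one and 3 reversed. Outside that count, the light changes of AT2G29290 and AT4G03410 in ribosome-protected mRNA also changed sign. They turned to 1.82 without ribosome-protected dark repeat 2 and to 0.89 without ribosome-protected light repeat 2, in that order. Depth limits most the ribosome-protected leader counts of repeat 1.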
